A study of Mus musculus with 18 samples.

Results

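The 10 genes of T cells and natural killer (NK) cells described here were followed through 18 mouse mammary tumors measured by bulk RNA sequencing: Cd3d, Cd3e, Cd4, Cd8a, Cd8b1, Foxp3, Gzmb, Prf1, Nkg7 and Ifng. They were chosen by name, among 57126 genes in the count table. Of the tumors, 6 were MaP -/-, 5 were MaP R245W/- and 7 were MaP R172H/-. The 12 mutant tumors came from 12 mice and the 6 MaP -/- tumors from 4 mice. JM663 gave a left (T1) and a right (T2) tumor, and JM833 gave tumors T1 and T2. All mice were females of an F1 hybrid of BALB/c and C57BL6/J, and adenovirus carrying Cre recombinase was injected into the mammary duct. Recombination removed the wild-type Trp53 cDNA in mammary ductal epithelial cells, leaving p53R172H with a null allele, p53R245W with a null allele, or no p53. T cells, NK cells and stroma therefore kept wild-type Trp53 in all 3 groups. A Rosa26 LSL-TdTomato reporter allele was carried by 3 MaP R172H/- tumors (YZ2, YZ6 and YZ10), by 3 MaP R245W/- tumors (JM1233, JM1564 and RM0014) and by no MaP -/- tumor. Virus was given to young adults, and tissues were collected from moribund mice, after a time that differed between mice and was not analysed here. For JM779 and JM836 the labels name the T1 tumor and the published list of mice marks the T2 tumor as the one sequenced, and the labels are followed. The count columns of JM663 mark T1 with L and T2 with R, and the column of JM779 carries the R, so that by this key, too, its library would be the T2 tumor, against its title. The MaP R172H/- libraries were run on an Illumina HiSeq and all others on a NovaSeq, so that genotype and sequencing platform cannot be told apart for that group. The paper classed the MaP R172H/- tumors as nonmetaplastic adenocarcinomas of luminal B or HER2-enriched subtype. It classed all others as triple-negative, many of them metaplastic. Subtype therefore cannot be told apart from that genotype either, and histology only in part. Total counts ranged from 23113578 to 27930163 in MaP R172H/-, from 30030630 to 37365062 in MaP R245W/- and from 24736337 to 32085794 in MaP -/- tumors.

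T cells recognize peptides through a receptor that signals through the CD3 chains, and the coreceptors CD4 and CD8 mark the helper and the killer branch. Killer T cells and NK cells empty granules holding perforin and granzymes onto a target, and both secrete interferon gamma. Regulatory T cells, which restrain the other branches, are set by the transcription factor Foxp3. In breast tumors these cells sit among far more numerous epithelial, stromal and myeloid cells. In bulk tissue, fewer cells of a type and less RNA per cell cannot be told apart.

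The stretches of 250 bases directly upstream of the transcription start are shown for 5 of the genes, because their levels divide into a block that moved together over the tumors (Cd3d, Cd8a and Nkg7) and a pair of granule genes that followed it less closely (Gzmb and Prf1). They were read from GRCm39 on the strand of the gene: Cd3d at chr9:44892833-44893082 (plus strand), Cd8a at chr6:71350161-71350410 (plus), Nkg7 at chr7:43086247-43086496 (plus), Gzmb at chr14:56499718-56499967 (minus) and Prf1 at chr10:61133296-61133545 (plus). Capitals mark each match to 1 of 6 motifs searched on both strands.
Cd3d: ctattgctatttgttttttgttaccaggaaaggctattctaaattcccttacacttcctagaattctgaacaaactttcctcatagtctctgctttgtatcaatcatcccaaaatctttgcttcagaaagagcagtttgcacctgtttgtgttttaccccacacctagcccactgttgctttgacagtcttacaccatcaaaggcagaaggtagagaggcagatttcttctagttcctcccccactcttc
Cd8a: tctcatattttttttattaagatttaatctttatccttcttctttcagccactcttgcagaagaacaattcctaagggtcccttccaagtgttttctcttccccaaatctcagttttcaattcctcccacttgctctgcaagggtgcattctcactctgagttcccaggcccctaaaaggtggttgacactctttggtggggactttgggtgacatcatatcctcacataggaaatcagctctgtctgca
Nkg7: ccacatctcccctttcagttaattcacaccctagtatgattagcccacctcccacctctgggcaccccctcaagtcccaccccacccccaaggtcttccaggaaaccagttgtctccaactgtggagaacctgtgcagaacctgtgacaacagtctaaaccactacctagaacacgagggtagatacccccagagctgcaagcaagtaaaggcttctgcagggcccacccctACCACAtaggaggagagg
Gzmb: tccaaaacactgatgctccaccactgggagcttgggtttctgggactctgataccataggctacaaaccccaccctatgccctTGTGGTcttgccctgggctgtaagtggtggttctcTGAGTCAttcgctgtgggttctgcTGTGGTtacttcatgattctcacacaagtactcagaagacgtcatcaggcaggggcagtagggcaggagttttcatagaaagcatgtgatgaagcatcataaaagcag
Prf1: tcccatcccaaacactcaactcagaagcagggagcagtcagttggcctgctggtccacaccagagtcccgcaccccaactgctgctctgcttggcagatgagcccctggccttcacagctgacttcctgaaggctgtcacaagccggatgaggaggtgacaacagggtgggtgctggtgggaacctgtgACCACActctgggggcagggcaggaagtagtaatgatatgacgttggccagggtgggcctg

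The window searched ran from 250 bases before to 50 bases after the start of the canonical transcript, in all 10 genes and in 21672 protein-coding promoters of the same length. The Runx letters TGTGGT were found in 3 of the 10 genes, Gzmb, Prf1 and Nkg7, which are the granule genes, and in 15.4% of all promoters. Gzmb held them 167 and 108 bases before its start, Prf1 held them on the opposite strand 61 bases before its start, and Nkg7 on the opposite strand 18 bases before. The AP-1 letters TGANTCA, which read the same on both strands, lay 132 bases before the start of Gzmb alone, between its Runx matches, against 7.16% of all promoters. None of the 10 windows held the NFAT letters GGAAAA (24.6% of all promoters), the GATA letters AGATAA (10.6%), the ETS letters CCGGAAG (10.3%) or the T-box letters AGGTGTGA (1.14%). NFAT and ETS letters share GGAA but differ in the next base, so that the same GGAA cannot match both. A match describes letters only, and no match says nothing about the factor.

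One library stood apart before any groups were compared. Tumor T2 of mouse JM833, a MaP -/- tumor, held the highest level of Cd3d, Cd3e, Cd4, Cd8a and Cd8b1 of all 18 tumors, between 6.34 times (Cd4) and 9.18 times (Cd3e) the median of the 17 others. It was also far highest in the sums of B cell and of lymph node genes. Ms4a1, the B cell surface protein CD20, stood at 95.4 CPM (counts scaled to the effective library size) against a median of 0.480 CPM in the 17 others, and the complement receptor Cr2 of B cells and follicular dendritic cells at 197 against 0.981 CPM. The 8 B cell genes summed to 430.8 CPM in it and to between 2.63 and 22.5 CPM in the other 17 tumors, with Cd22 the most abundant over the series. The 7 lymph node genes summed to 371.5 CPM in it and to at most 99.5 CPM elsewhere, with Cr2 the most abundant. No gene of either list was at 0 in that tumor. Foxp3 and Gzmb did not share the pattern, at 1.34 and 0.660 times the median of the others. Whether tissue of a lymph node was taken with the tumor was not tested. Tumor T1 of the same mouse held 22.5 CPM of B cell genes, the second highest sum. Comparisons of the 10 genes, their ratios and the lists with MaP -/- tumors were therefore also made without both JM833 tumors, a choice made after seeing the data.

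**Figure D1:**
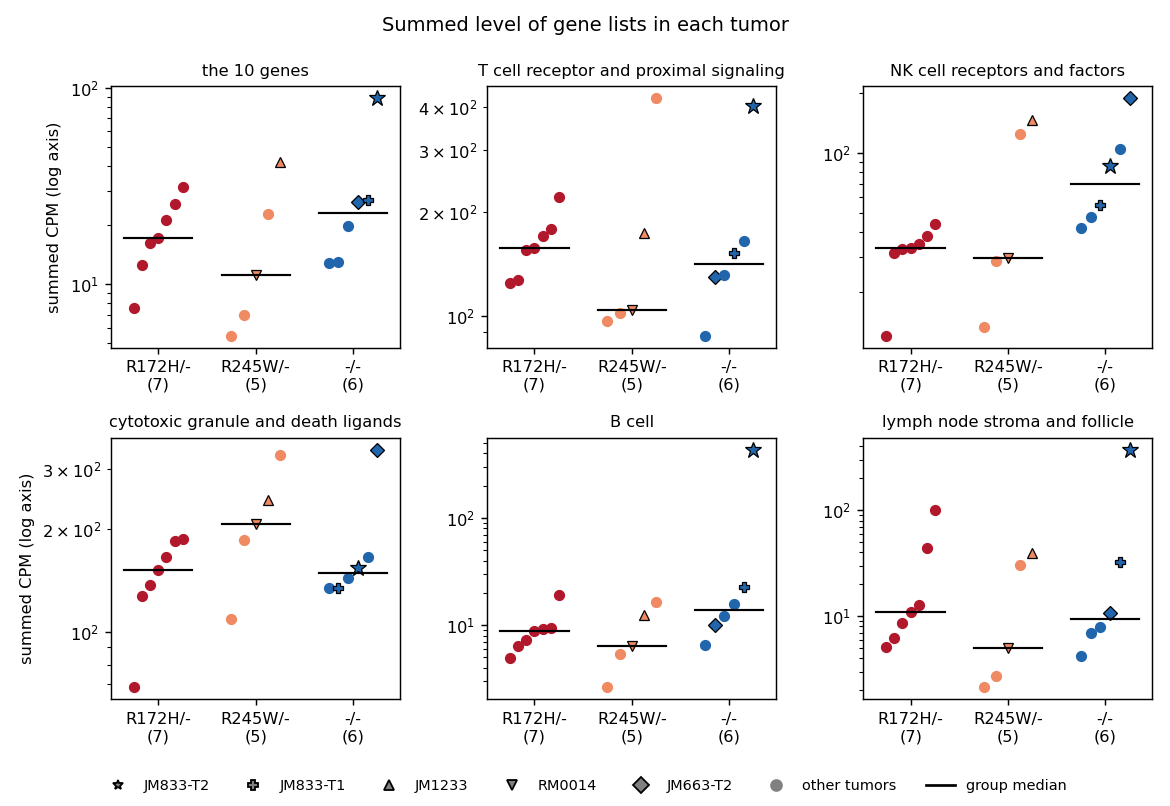
Summed CPM (log axis) of the 10 genes and of 5 lists in each tumor, 1 point a tumor, with the number of tumors under each group and a bar at the group median. The star is JM833-T2, at 430.8 CPM of B cell genes and 371.5 CPM of lymph node genes, above every other tumor in both panels.

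Cd3d and Cd3e encode the delta and epsilon chains of the CD3 complex, which every T cell carries with its receptor. Both lie on chromosome 9, Cd3d at 44893083 to 44899173 on the plus strand and Cd3e at 44910037 to 44920925 on the minus strand (GRCm39, as for all positions here). Both were low in most tumors. Cd3e in MaP R172H/- tumors ranged from 0.259 CPM in YZ2 to 3.54 CPM in YZ4, with a median of 1.02 CPM. The 5 MaP R245W/- tumors stood at 1.97 CPM in JM1233, 0.155 in JM1564, 0.143 in RM0014, 0.768 in JM1126 and 0.344 in JM1133. MaP -/- tumors ranged from 0.711 CPM in JM779-T1 to 8.47 in JM833-T2, with a median of 1.5 CPM. The groups overlapped, although JM1564, RM0014 and JM1133 lay below every MaP -/- tumor. The lowest values rested on few reads, 5 counts of Cd3e each in JM1564 and RM0014. Cd3d gave the same order of group medians, 0.858 CPM in MaP R172H/-, 0.458 CPM in MaP R245W/- and 0.932 CPM in MaP -/- tumors, with extremes of 0.0880 CPM (2 counts) in YZ7 and 7.12 CPM in JM833-T2.

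The coreceptors also varied widely between tumors. Cd8a and Cd8b1, neighbours on chromosome 6 (71350411 to 71356157 and 71299772 to 71315087, both on the plus strand), encode the chains of CD8. Cd8a ranged from 1.06 CPM in YZ7 to 7.09 CPM in YZ4 among MaP R172H/- tumors, with a median of 3.30 CPM. It stood at 6.21, 1.11, 0.516, 2.37 and 1.53 CPM in the MaP R245W/- tumors JM1233, JM1564, RM0014, JM1126 and JM1133, and ran from 1.81 to 24.8 CPM with a median of 3.96 CPM in MaP -/- tumors. JM833-T2 was highest, followed in its group by JM833-T1, from the same mouse, at 6.82 CPM. Cd8b1 had medians of 1.66, 0.573 and 1.2 CPM in MaP R172H/-, MaP R245W/- and MaP -/- tumors, over ranges of 0.821 to 4.17, 0.229 to 2.63 and 0.677 to 11.1 CPM. Cd4, on chromosome 6 at 124841655 to 124874758 on the minus strand, marks helper and regulatory T cells and is also made by some macrophages and dendritic cells. It was even in the MaP R172H/- tumors, where 6 of 7 lay between 3.91 and 5.20 CPM and YZ2 at 1.51 CPM. The MaP R245W/- tumors split, at 5.85 CPM in JM1233 and 10.8 CPM in JM1126 against 1.33, 0.946 and 1.07 CPM in JM1564, RM0014 and JM1133. Cd4 in MaP -/- tumors ran from 2.37 to 24.8 CPM with a median of 3.52 CPM. JM1126, with Cd4 at 10.8 CPM but Cd3e at 0.768 CPM, also had the highest Trbc2, a constant segment of the T cell receptor beta chain, at 31.5 CPM, and the highest fibroblast sum, 18504 CPM.

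Foxp3, on the X chromosome at 7439883 to 7461484 on the plus strand, varied least. Its highest tumor was 4.43 times its lowest, against 59.1 times for Cd3e and 48.1 times for Cd8a. MaP R172H/- tumors ranged from 1.81 to 3.43 CPM (median 2.76), MaP -/- tumors from 1.60 to 2.87 CPM (median 2.18), and the MaP R245W/- tumors stood at 2.99, 0.927, 0.774, 2.21 and 1.37 CPM in JM1233, JM1564, RM0014, JM1126 and JM1133. Only JM1564, RM0014 and JM1133 fell below every other tumor. YZ7, with 7 counts of Cd3e, had the highest Foxp3 of the series at 3.43 CPM. Of the 4577 exon bases of Foxp3, 853 are shared with the noncoding gene Flicr on the same strand, which held 4 to 36 counts a tumor against 27 to 100 counts of Foxp3. How the counting divided such reads was not tested.

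Gzmb encodes granzyme B, the protease that kills the target cell, and Prf1 encodes perforin, which opens the way into it. Gzmb (chromosome 14, 56496295 to 56499717, minus strand) had medians of 1.63, 2.05 and 1.85 CPM in MaP R172H/-, MaP R245W/- and MaP -/- tumors. MaP R172H/- tumors ranged from 0.396 to 3.33 CPM, MaP R245W/- tumors from 0.556 to 5.94 CPM and MaP -/- tumors from 1.35 to 8.28 CPM. JM663-T2 was highest and JM833-T2, the tumor richest in Cd3e, was the lowest of the MaP -/- tumors. Prf1 (chromosome 10, 61133546 to 61140461, plus strand) separated 3 tumors from the rest. JM1233 stood at 9.02 CPM (302 counts), JM663-T2 at 5.90 CPM (179 counts) and RM0014 at 5.36 CPM (187 counts), followed by JM833-T2 at 3.04 and JM833-T1 at 2.10 CPM. The 13 others lay between 0.344 and 1.2 CPM. The 7 MaP R172H/- tumors were among these 13, from 0.518 to 1.13 CPM with a median of 0.939 CPM, and the remaining MaP R245W/- tumors held 0.371 (JM1564), 0.927 (JM1126) and 0.344 CPM (JM1133). MaP -/- tumors had a median of 1.65 CPM.

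The 3 tumors high in Prf1 differed in T cell genes. RM0014 held the lowest Cd3e, Cd4, Cd8a, Cd8b1, Foxp3 and Nkg7 of all 18 tumors, while JM1233 was among the highest 6 tumors in Cd3d, Cd3e and Cd8a and JM663-T2 lay in the middle. All 3 held more of the granzymes Gzmf and Gzmg than the other tumors, at 29.2 and 11.5 CPM in JM1233, 7.57 and 10.01 CPM in RM0014, and 12.6 and 11.01 CPM in JM663-T2. Elsewhere both were at or below 0.602 CPM. Gzmc and Gzme did not follow Prf1 in this way. They stood at 40.0 and 11.5 CPM in JM1233, 10.8 and 16.9 CPM in RM0014 and 19.1 and 13.7 CPM in JM663-T2, but also at 27.6 and 60.6 CPM in JM1126, whose Prf1 was 0.927 CPM. Gzmc to Gzmg are close copies, so that reads could be divided among them in error, and their single values are uncertain. Ncr1, the NK receptor NKp46, stood at 4.12 CPM in JM1233, 1.58 in JM663-T2 and 0.315 in RM0014. Klra4, an activating receptor of the Ly49 family with similar copies, stood at 17.0, 61.6 and 0.660 CPM. The NK genes were mixed in RM0014. Its Klra4, Klrg1 and Klrb1c lay at 3.63, 2.39 and 2.07 times the median of the other tumors, and its Klrk1, Klrd1 and Eomes at 0.406, 0.374 and 0.280 times. These values were read after those of Prf1, and they are a description.

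Nkg7, a membrane protein of cytotoxic granules (chromosome 7, 43086497 to 43087678, plus strand), followed the T cell genes more closely than Prf1. MaP R172H/- tumors ranged from 0.528 to 3.08 CPM (median 1.57) and MaP -/- tumors from 0.640 to 4.76 CPM (median 1.51). JM1233 held 5.64 CPM, against 0.495, 0.459, 1.28 and 0.535 CPM in the MaP R245W/- tumors JM1564, RM0014, JM1126 and JM1133. Ifng, interferon gamma (chromosome 10, 118276951 to 118281797, plus strand), was at or near the limit of detection, with 18 counts over all 18 tumors, none in 11 of them, and at most 5 counts, in JM833-T1. A count of 0 allows up to 3 counts, or 0.0860 to 0.135 CPM depending on the tumor, a bound on counting error only. Ifng did not pass the filter on low counts, so 9 of the 10 genes were tested in each comparison. Its values in the fits without that filter are not reported here.

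Per kilobase of exon, the median levels over 18 tumors put Nkg7 (1.43 CPM per kb) and Gzmb (1.28) highest, followed by Cd4 (0.891), Cd8a (0.818), Cd8b1 (0.635), Foxp3 (0.474), Prf1 (0.355), Cd3d (0.339) and Cd3e (0.239), with Ifng at 0. The highest tumor was at least 4.43 times the lowest for each of the 9 genes above 0 in every tumor. Whether neighbours in this order differ within tumors was not tested.

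**Figure D2:**
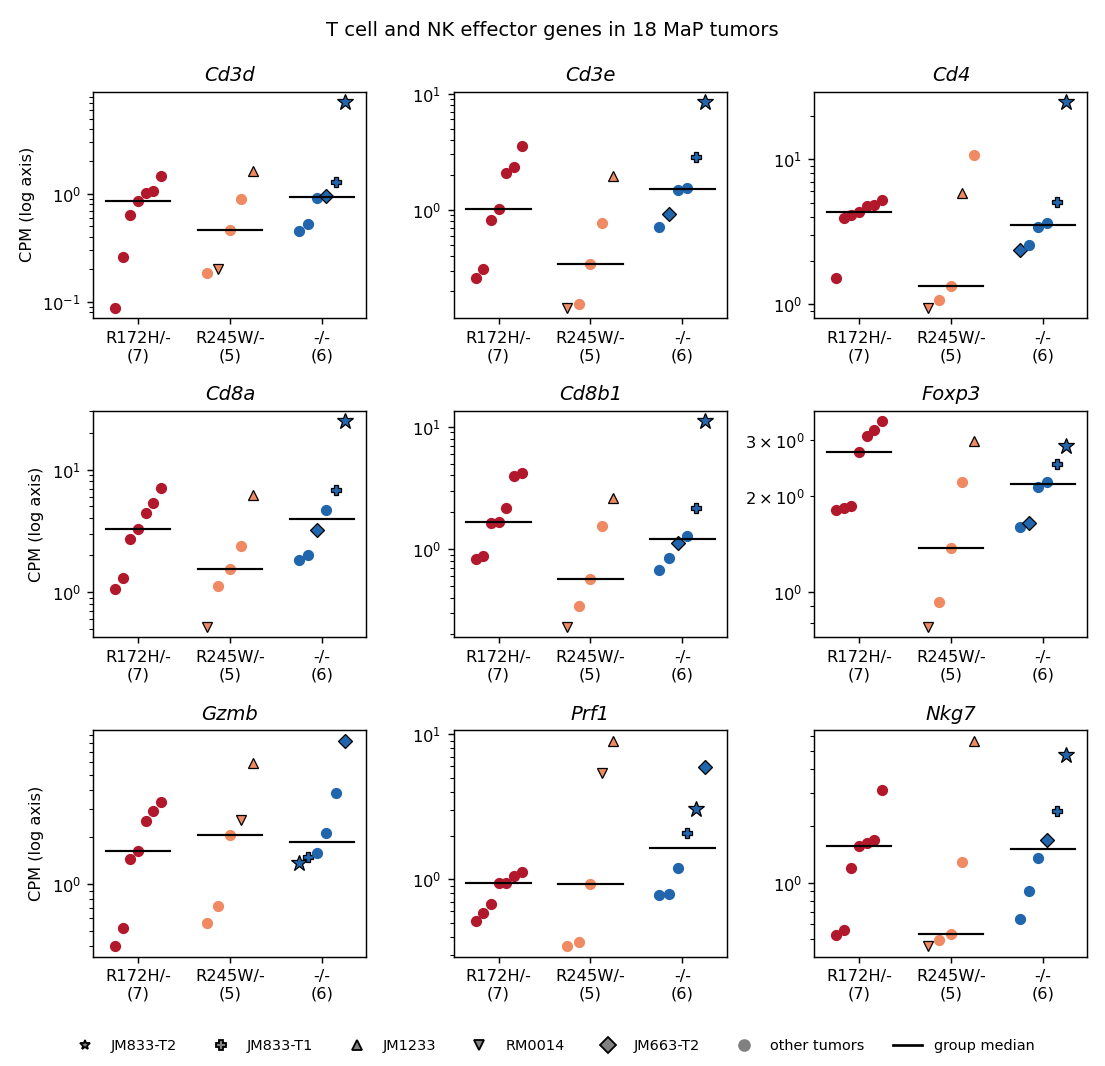
CPM (log axis) of 9 of the 10 genes in every tumor, by group, 1 point a tumor, with a bar at the group median. JM833-T2 (star) is highest in Cd3d, Cd3e, Cd4, Cd8a and Cd8b1, while JM1233 (up triangle), RM0014 (down triangle) and JM663-T2 (diamond) hold Prf1 at 5.36 CPM or more.

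The first comparison set MaP R172H/- against MaP -/- tumors to ask how these genes differ between tumors with p53R172H and tumors without p53. None of the 9 genes tested passed an adjusted p of 0.05 with edgeR's quasi-likelihood test, when 8.40% of the 20954 genes tested did, and none had groups without overlap, against 4.62% of genes. One gene, Prf1, passed an unadjusted p of 0.05, against 24.7% of all genes. Prf1 differed by -1.43 on the log2 scale (SE 0.459), with an edgeR adjusted p of 0.0718, and all 7 MaP R172H/- tumors lay below the MaP -/- median. DESeq2 called 1 of the genes, Prf1 (adjusted p = 0.0315), and 11.4% of all genes, and gave no p for Cd4. Without JM663-T2 the Prf1 difference was -0.89 (edgeR adjusted p = 0.191), and without JM779-T1 it was -1.61 (edgeR adjusted p = 0.0439). For 8 of 9 genes the difference was below 0, with a median of -0.74, beside a median of 0.0027 over all genes tested. Without both JM833 tumors, the differences of Cd3d (from -1.24 to 0.14), Cd3e (-0.80 to 0.39), Cd4 (-0.74 to 0.46), Cd8a (-0.96 to 0.33), Cd8b1 (-0.35 to 1.18) and Nkg7 (-0.38 to 0.38) turned from below to above 0. Those of Gzmb (-0.74 and -1.09), Prf1 (-1.43 and -1.36) and Foxp3 (0.27 and 0.45) kept their sign. The direction of the T cell genes in this comparison therefore rested on 1 mouse.

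The second comparison set MaP R245W/- against MaP -/- tumors, all on the same platform. None of the 9 genes, and 0% of the 21452 genes tested, passed an adjusted p of 0.05 with edgeR, and none of the 9 had groups without overlap (1.32% of all genes). DESeq2 called none of them and 1.71% of all genes. One gene, Cd3e, passed an unadjusted p of 0.05 with edgeR, against 11.8% of all genes. It differed by -1.98 (SE 0.850) on the log2 scale with an edgeR adjusted p of 0.400, and by -0.76 without both JM833 tumors. The differences of Cd8a (-1.63, SE 0.817), Cd3d (-1.48, SE 0.845) and Cd8b1 (-1.44, SE 0.884) shrank to -0.31, -0.06 and 0.12 without those tumors. Prf1 stood at 0.47 (SE 0.878), and at -0.39 without JM1233.

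The third comparison set the mutants against each other, with the spread taken from all 18 tumors. Again none of the 9 genes passed an adjusted p of 0.05 with edgeR, against 9.40% of 22481 genes, and none had groups without overlap, against 5.83%. Prf1 alone passed an unadjusted p of 0.05 (25.9% of all genes did), at -1.94 (SE 0.712) and an edgeR adjusted p of 0.0948, and DESeq2 called it (adjusted p = 0.0491) among 12.3% of all genes. Without JM1233 the edgeR difference was -1.07 (adjusted p = 0.346). Cd3e differed by 1.13 (SE 0.804), Cd8b1 by 1.04 (SE 0.761) and Foxp3 by 0.63 (SE 0.331). The TdTomato reporter was compared over the 12 mutant tumors, 6 with and 6 without the allele, with genotype in the model. None of the 9 genes passed either threshold with edgeR, where 0% of 21586 genes passed the adjusted and 4.87% the unadjusted one, or with DESeq2, which called 0.0958% of all genes. Prf1 differed most, by 1.09 (SE 0.841).

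**Figure D3:**
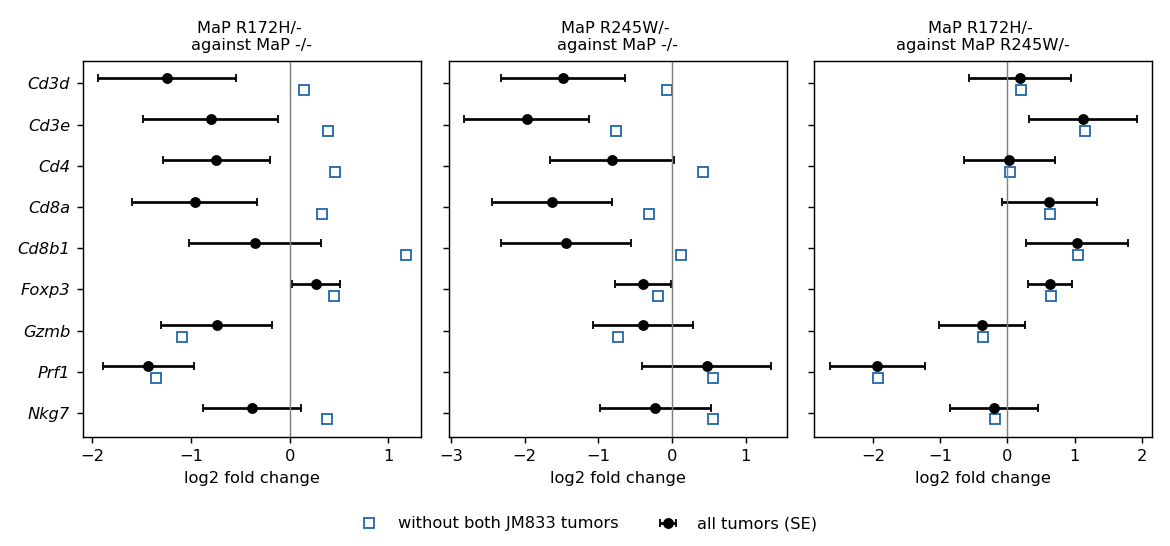
Log2 fold change of 9 genes in 3 comparisons. Filled points are edgeR values from all tumors with their SE, and open squares are values without both JM833 tumors. In the left panel 6 squares lie on the other side of 0 from their points.

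Ratios of 2 genes within a tumor need no scaling between libraries, although the 0.5 added to each count weighs more where counts are low, and 5 of them were compared in 3 comparisons with two-sided exact permutation tests, with p-values adjusted over the 15. Cd8b1 to Cd8a was higher in MaP R172H/- than in MaP -/- tumors. The log2 ratio was -0.69 ± 0.281 (SD, n = 7) against -1.47 ± 0.294 (SD, n = 6), a difference of 0.78 (exact p = 0.00117, the smallest these groups allow, adjusted p = 0.0175). This p counts the tumors of JM663, and those of JM833, as independent, which they are not. With the tumors of 1 mouse summed, the direction and the call held. The groups did not overlap, though the gap was narrow, from -1.03 in YZ6 to -1.09 in JM779-T1. MaP R245W/- tumors had a mean between these, at -1.21 ± 0.386 (SD, n = 5). They differed from MaP R172H/- tumors by 0.51 (exact adjusted p = 0.104) and from MaP -/- tumors by 0.26 (exact adjusted p = 0.364). Genotype, platform and tumor subtype cannot be told apart in this ratio. Without both JM833 tumors the difference was 0.81 (exact adjusted p = 0.0455).

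Gzmb to Cd3e differed between the mutants, with the lower ratio in MaP R172H/-. The log2 ratio was 0.47 ± 0.499 (SD, n = 7) against 1.96 ± 1.18 (SD, n = 5), a difference of -1.49 (exact p = 0.00253, adjusted p = 0.0189). The 5 MaP R245W/- tumors stood at 1.58 in JM1233, 1.75 in JM1564, 4.02 in RM0014, 1.40 in JM1126 and 1.04 in JM1133, and the highest MaP R172H/- tumor, YZ11, at 0.98. The groups did not overlap, by a margin that rests on 9 counts of Cd3e in JM1133, and the groups also differed in depth, with median total counts of 24064910 in MaP R172H/- and 33581143 in MaP R245W/- tumors. With 0.1 or 2 added to each count the difference was -1.53 or -1.39, with the same adjusted p. Of the single tumors left out in turn, RM0014 shrank the difference most, and the call held. MaP -/- tumors spanned the range of both, from -2.63 in JM833-T2 to 3.14 in JM663-T2, with differences of 0.04 from MaP R172H/- (exact adjusted p = 0.957) and 1.54 from MaP R245W/- tumors (exact adjusted p = 0.289). Without both JM833 tumors these were -1.06 (exact adjusted p = 0.159) and 0.43 (exact adjusted p = 0.663). Foxp3 to Cd3e was 1.77 ± 0.754 (SD, n = 5) in MaP R245W/- and 0.22 ± 1.06 (SD, n = 6) in MaP -/- tumors, a difference of 1.55 (exact p = 0.0260, adjusted p = 0.104), or 1.01 without both JM833 tumors (exact adjusted p = 0.238). Prf1 to Cd3e and Cd8b1 to Cd4 had exact adjusted p-values from 0.159 to 0.753 in the 3 comparisons.

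**Figure D4:**
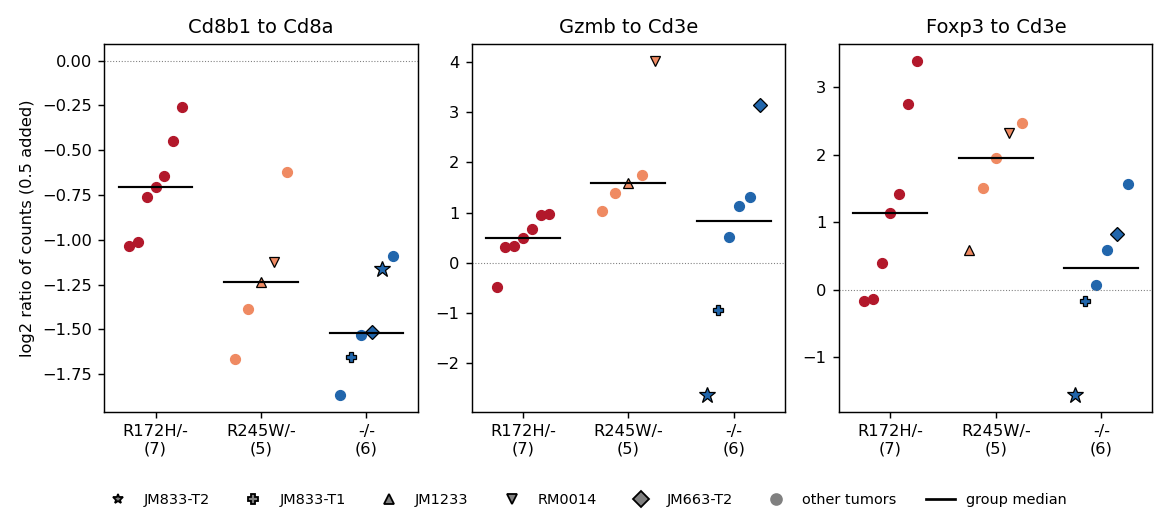
Log2 ratio of counts, with 0.5 added to each, for Cd8b1 to Cd8a, Gzmb to Cd3e and Foxp3 to Cd3e in each tumor, with a bar at the group median. MaP R172H/- tumors lie above all MaP -/- tumors in the left panel and below all MaP R245W/- tumors in the middle one.

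Across the 18 tumors, rank correlations describe which of the genes moved together. These tumors share groups, platform and, for 4 of them, mice. Cd3d, Cd3e, Cd8a, Cd8b1 and Nkg7 formed a block with Spearman rho between 0.880 and 0.963 for each pair. Cd4 was less close to the block, at 0.653 with Cd3e, 0.655 with Cd3d, 0.684 with Cd8a, 0.723 with Nkg7 and 0.835 with Cd8b1. Foxp3 was closest to Cd4 (0.767), and Gzmb to Prf1 (0.606). Gzmb and Prf1 lay at 0.536 and 0.562 with Cd3d and at 0.484 and 0.542 with Nkg7, and Gzmb was at 0.053 with Cd4 and -0.079 with Foxp3. Of all genes kept in the fit of 18 tumors, the nearest to Cd3e were Cd3g (0.961), Cd8a and Themis, to Cd3d Cd8a (0.963), Cd6 and Nkg7, and to Cd8a Themis (0.963), Cd3d and Nkg7. The nearest to Nkg7 were Cd8a (0.959), Cd3d and Lax1, and to Cd8b1 Pglyrp2 (0.963), Cd247 and Prkcq. Cd4 was nearest to Akna (0.930), Nfatc1 and Cd7. The others had no gene of that closeness: Foxp3 was nearest to Ttc28 (0.897), Sh2b3 and Alms1-ps1, Prf1 to Grk5 (0.880), Hoxd4 and Kcnj14, and Gzmb to Klra2 (0.798), Gzmk and Atp10d.

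**Figure D5:**
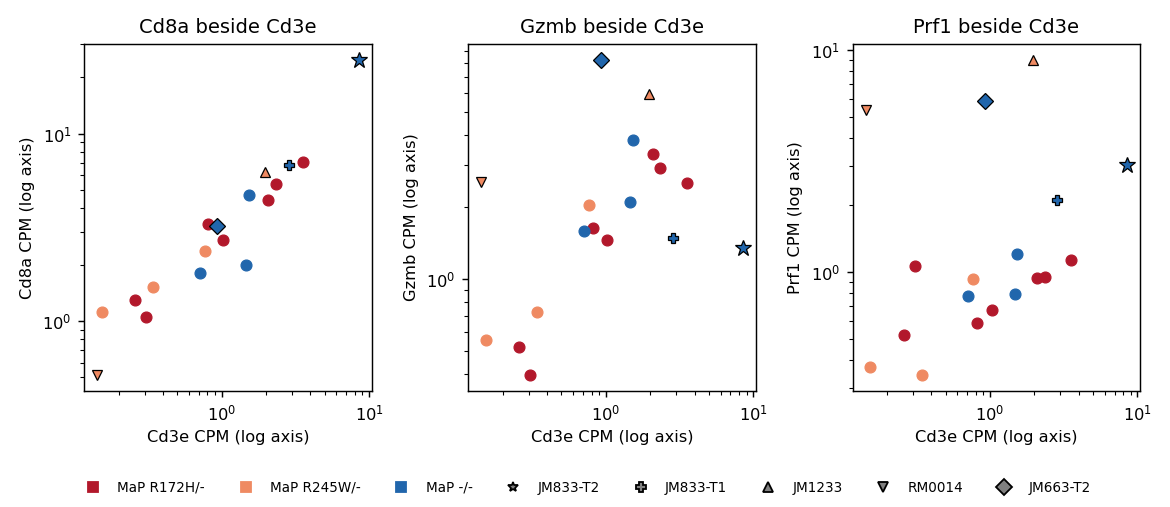
CPM of Cd8a, Gzmb and Prf1 against CPM of Cd3e in 18 tumors, both axes log, colored by group. Cd8a rises along with Cd3e (rho 0.955), whereas JM1233, RM0014 and JM663-T2 lie above the other tumors in Prf1 and held 1.97, 0.143 and 0.923 CPM of Cd3e.

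Cd3e was then set beside marker genes over 16 mice, with tumors of 1 mouse averaged, log2 of CPM plus 0.1, permutation p-values, and adjustment over 5 relations, of which 4 are given. Ccl21a, a chemokine of lymph node and lymphatic vessels that draws T cells, was highest in JM833-T2 (52.8 CPM) and JM1233 (25.4 CPM). It gave Pearson's r = 0.723 (permutation adjusted p = 0.0081) and Spearman's rho = 0.688 (permutation adjusted p = 0.0219). Without JM833 and RM0014, the mice farthest from the median of Cd3e, r was 0.614. Within the 7 MaP R172H/- mice r was 0.713 (exact permutation adjusted p = 0.178) and rho 0.571 (exact permutation adjusted p = 0.5), and within the 9 other mice it was 0.727 (exact permutation adjusted p = 0.0459), or 0.506 without the same pair, and rho was 0.633 (exact permutation adjusted p = 0.143). Ptprc, the leukocyte marker CD45, gave r = 0.610 (permutation adjusted p = 0.0330) and rho = 0.547 (permutation adjusted p = 0.0747), and r = 0.571 without the same pair. Within the 7 MaP R172H/- mice its r was 0.893 (exact permutation adjusted p = 0.0218) and within the 9 others 0.814 (exact permutation adjusted p = 0.0357), with rho at 0.929 (exact permutation adjusted p = 0.0337) and 0.817 (exact permutation adjusted p = 0.0538). With CPM plus 1 the relation no longer passed over 16 mice (permutation adjusted p = 0.0519) or over the 9 others (exact permutation adjusted p = 0.0513). Adgre1, a macrophage marker (r = 0.252, permutation adjusted p = 0.437), and Epcam, an epithelial marker (r = -0.036, permutation adjusted p = 0.897), did not pass the test.

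The wider pathways were described by lists. In MaP R172H/- against MaP -/- tumors, where 4.73% of all genes were called lower, 1 of 22 genes of T cell receptor signaling was called lower (Lcp2, an adaptor, by -0.63 on the log2 scale, and -0.56 without both JM833 tumors) and none higher. The list's median difference was -0.73, and those of the NK, granule, regulatory T cell, interferon gamma and gamma delta lists were -0.95, -0.24, 0.11, -0.20 and -0.08. Without both JM833 tumors, when 6.76% of 21415 genes were called, the median of the T cell receptor list was 0.41, with 15 genes above 0 and 7 below, and the other medians were -0.60, -0.16, 0.038, -0.13 and 0.25. Its most abundant genes were Thy1, which fibroblasts also make, and Lcp2. Of 12 NK genes tested, 11 stood below 0, and 10 did so without both JM833 tumors. With all tumors 2 of the 12 were called lower: Ncr1 by -2.85 (SE 0.720, edgeR adjusted p = 0.0270) and Cd244a, a receptor shared with other leukocytes, by -1.36 (SE 0.347, edgeR adjusted p = 0.0285). Ncr1 stood at 0 to 0.451 CPM in MaP R172H/- tumors and 0.218 to 4.39 CPM in MaP -/- tumors, which overlapped. In counts these were at most 10 a tumor in MaP R172H/- against 6 to 130 in MaP -/- tumors, so that Ncr1 entered the test mainly through the group where it was high, and its call is given as a description. The highest values were those of JM833, and without both its tumors the difference was -1.69 (edgeR adjusted p = 0.144). Cd244a ran from 1.28 to 6.85 CPM against 7.56 to 20.9 CPM, without overlap, and differed by -1.58 without the JM833 tumors (edgeR adjusted p = 0.0281). With the tumors of 1 mouse summed, the calls of Cd244a (edgeR adjusted p = 0.0567), Ncr1 (0.0514), Il10 (0.0805), Cpa3 (0.0763) and Cd1d1 (0.0624) were lost. Il18rap led that list in level at a mean of 23.1 CPM. Of 9 regulatory T cell genes 4 stood below 0, and only Il10 was called lower (-1.65), a call lost without the JM833 tumors (-1.81, edgeR adjusted p = 0.0632). Of 16 granule genes, 18 genes of the interferon gamma axis and 4 gamma delta T cell genes none was called in either direction. Of them 4, 3 and 1 had an unadjusted p below 0.05 with edgeR, beside 24.7% of all genes. Without the JM833 tumors, Srgn, the granule proteoglycan serglycin, was called lower (-1.23) and Sox13 higher (2.12). The most abundant were Ikzf2 and Lrrc32, Srgn and Unc13d, Jak1 and Gbp2, and Sox13 and Trgc2, in that order of lists, several of which other cells also express.

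Some markers of other leukocytes and of fibroblasts were also called lower. Ptprc (-1.24, SE 0.285) and Cd53 (-2.0, SE 0.260) of 10 pan-leukocyte genes were called lower in MaP R172H/- tumors, as were Adgre1 (-1.04) and Mrc1 (-2.03) of 10 macrophage genes, S100a8, S100a9, Retnlg and Camp of 7 neutrophil genes (-3.13, -3.66, -3.46 and -2.17), Cpa3 and Hdc of 4 mast cell genes (-3.53 and -2.03), Cd1d1, the 1 immature lymphocyte gene tested (-1.44), and Lum and Pdgfra of 6 fibroblast genes (-1.98 and -2.49). Of the macrophage genes 3 stood above 0, C1qa (0.19), C1qb (0.14) and C1qc (0.046), and of 8 dendritic cell genes 2, Itgax (0.38) and Batf3 (0.64), none of them called. Of the dendritic cell genes 6 stood above 0 without both JM833 tumors. Without both JM833 tumors the calls of Cpa3 (-1.28, edgeR adjusted p = 0.349), Cd1d1 (-0.78, edgeR adjusted p = 0.145), Lum (-1.37, edgeR adjusted p = 0.0965) and Mrc1 (-2.01, edgeR adjusted p = 0.0591) were lost. Those of Ptprc, Cd53, Adgre1, Hdc, Pdgfra and the 4 neutrophil genes held, and 7 of 8 neutrophil genes were then called. In a fit of all 18 tumors together the calls of Adgre1 (edgeR adjusted p = 0.0734), Pdgfra (0.0708), Mrc1 (0.0815), Hdc (0.0828), Lum (0.0909), Lcp2 (0.181), Ncr1 (0.0787) and Il10 (0.0793) were lost. Without the filter on low counts the calls of Lcp2 (edgeR adjusted p = 0.0666), Hdc (0.0527), Cpa3 (0.0631), Cd1d1 (0.0736), Il10 (0.0845) and Cd244a (0.0516) were lost. With 10 counts in every tumor the 4 neutrophil genes, Cpa3, Ncr1 and Il10 were not tested. Of the genes named in these lists, Ptprc and Cd53 alone were called in each of the 7 other settings and in each fit that left out 1 tumor. When single tumors were left out, the calls of Cd1d1, Cpa3, Il10 and Hdc held in 2, 4, 4 and 6 of 13 fits, those of Lcp2, Ncr1 and Cd244a in 9, and those of Ptprc, Cd53, Adgre1, S100a9, Retnlg and Camp in 13. Ptprc ran from 66.4 to 161 CPM in MaP R172H/- and from 192 to 589 CPM in MaP -/- tumors. None of 8 B cell, 4 plasma cell, 8 dendritic cell, 6 lymph node, 10 epithelial, 6 adipocyte and 5 blood genes was called with edgeR, although 8, 0, 2, 2, 2, 2 and 5 of them passed an unadjusted p of 0.05, beside 24.7% of all genes. Without the JM833 tumors 1 of 8 B cell genes did. By mean CPM over 18 tumors these lists were led by Ptprc (206 CPM) for all leukocytes, C1qa (341) for macrophages, S100a9 (57.0) for neutrophils, Hdc for mast cells, Cd1d1 (16.9) for immature lymphocytes and Col1a2 (1747) for fibroblasts. Among the lists with no call, Cd22, Jchain, Itgax, Cr2, Krt18, Fabp4 and Hbb-bs led the B cell, plasma cell, dendritic cell, lymph node, epithelial, adipocyte and blood lists. The B cell list had a median of -3.0 and the epithelial list a median of 1.24, with all 8 B cell genes below 0 and all 10 epithelial genes above 0. Without the JM833 tumors these medians were 0.0012, with 4 B cell genes on each side of 0, and 1.04. The adipocyte median turned from -3.30 to 1.71, the lymph node median from -1.11 to 1.48, the dendritic cell median from -0.90 to 0.35 and the plasma cell median from -0.67 to 0.90. The part of these cells in the levels of the 10 genes was not tested.

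In MaP R172H/- against MaP R245W/- tumors, 6.49% of all genes were called lower, and 5 genes of the lists were, with none higher: Gzmf of 17 granule genes, Klra4 of 16 NK genes, Cd53 (-2.17, SE 0.389), Adgre1 (-1.31, SE 0.364) and Lum (-2.60, SE 0.740). Gzmf was at 0 in 6 MaP R172H/- tumors and at 1 count in YZ3, against 29.2, 0.0927, 7.57, 0.128 and 0 CPM in JM1233, JM1564, RM0014, JM1126 and JM1133 (edgeR adjusted p = 0.00713). Klra4 was at most 0.247 CPM in MaP R172H/- tumors, and at 17.0, 0.247, 0.660, 21.0 and 0.344 CPM in the same MaP R245W/- tumors (edgeR adjusted p = 0.0370). Both genes were high in 2 of 5 MaP R245W/- tumors, JM1233 and RM0014 for Gzmf and JM1233 and JM1126 for Klra4. In a fit of the 12 mutant tumors alone 1 of the 5 calls, Cd53, remained. Gzmf and Klra4 were not tested there, and Adgre1 and Lum had edgeR adjusted p-values of 0.0663 and 0.0502. Klra4, Adgre1 and Lum were also not called without the filter on low counts (edgeR adjusted p = 0.0533, 0.0515 and 0.0521), and with 10 counts in every tumor Gzmf and Klra4 were not tested. With each tumor left out, Klra4, Lum, Adgre1, Gzmf and Cd53 were called in 7, 11, 14, 15 and 18 of 18 fits. In the 3 fits without JM836-T1, JM663-T1 or JM663-T2, MaP -/- tumors outside this comparison, Gzmf did not pass the filter and was not tested, and neither was Klra4 in the 2 fits without JM663-T2 or JM833-T1. Klra4 held more than 9 counts in only 5 of 18 tumors. Both entered the test through the few tumors that held counts of them, and their calls are given as a description. None of 23 T cell receptor genes, 9 regulatory T cell genes, 18 interferon gamma genes, 12 chemokine genes or 6 gamma delta T cell genes was called. Of them 2, 1, 1, 1 and 0 had an unadjusted p below 0.05 with edgeR, beside 25.9% of all genes. No gene of the lists was called with edgeR in MaP R245W/- against MaP -/- tumors, with or without the JM833 tumors, or between tumors with and without the reporter.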

How the data were processed

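Total RNA of flash-frozen tumor pieces was depleted of ribosomal RNA and sequenced as stranded paired-end libraries, with R172H/- tumors on an Illumina HiSeq and the others on a NovaSeq. The authors checked reads with FastQC 0.11.9, mapped them to GRCm39 by STAR 2.7.10b, and took gene counts from RSEM 1.3.3 with GENCODE M34. The deposited values are raw counts per gene, whole numbers without normalization. Total counts per tumor ran from 23113578 to 37365062, and 3 counts correspond to 0.0860 to 0.135 CPM, counts scaled to the effective library size.

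The 10 genes, the 20 marker and pathway lists and the tests were chosen with earlier results of these data known. Genes were paired with GENCODE M39 by identifier (56620 of 57126). Counts were tested with edgeR 4.0.16 in R 4.3.3 (TMM, filterByExpr, quasi-likelihood test, Benjamini-Hochberg over all genes tested, called at an adjusted p below 0.05). Each mutant was fitted with the MaP -/- tumors alone, the mutants were compared in a fit of all 18 tumors, and the reporter in a fit of the 12 mutant tumors with genotype. The standard error is the log2 fold change divided by the root of the F statistic. CPM used effective library sizes of 18 tumors. Named list genes are those called, at most 4 per list with the largest fold change, and the 2 of highest mean CPM, and for each of the 10 genes the 3 genes of highest Spearman correlation. Ms4a1, Gzmg and Trbc2, and the tumors in which they, Gzmf, Klra4 and Ncr1 were high, were named after their values were seen, as was the choice to leave out both JM833 tumors. Ratios added 0.5 to each count and used exact permutation tests (scipy), and relations across mice used 100000 permutations, or all orders where there were fewer than 10 mice. Promoters were read from GRCm39. The edgeR fits and the permutation test were tested on simulated data. Alternatives were RLE size factors, DESeq2 1.42.0, no filter, 10 counts in every tumor, a fold limit, tumors of 1 mouse summed, other fits, other added counts and each tumor left out in turn. Some results for single genes of the lists and 1 relation are not reported here. The 2 tumors of JM663 and of JM833 are not independent samples. No pair of tumors in a group was alike within sampling noise (chi-square per gene at least 82.4).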

Additional observations from a re-analysis of the deposited data

Results flagged for a closer look

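Values far from the other tumors of their group, by a Dixon gap at the 95% level, were looked for in 57 sets of values, of which 17 had one. Chance alone flags about 1 in 20 such sets, and the sets are not independent, since many share a tumor.

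Of these, 8 lay in JM833-T2. Its T cell genes were far above the next MaP -/- tumor: Cd3d at 7.12 CPM (next 1.3), Cd3e at 8.47 CPM (next 2.84), Cd4 at 24.8 CPM (next 5.09), Cd8a at 24.8 CPM (next 6.82) and Cd8b1 at 11.1 CPM (next 2.16). So were its sums of T cell receptor genes (402.5 CPM, next 164.2), B cell genes (430.8 CPM, next 22.5) and lymph node genes (371.5 CPM, next 32.6).

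JM663-T2 stood out among MaP -/- tumors in Gzmb (8.28 CPM, next 3.81) and in the summed granule genes (341.5 CPM, next 165.5). In the MaP R245W/- group, JM1233 stood out in Nkg7 (5.64 CPM, next 1.28), RM0014 in the log2 ratio of Gzmb to Cd3e (4.02, next 1.75), and JM1126 in the summed T cell receptor genes (423.5 CPM, next 173.8), of which Thy1 held 253 CPM. Among MaP R172H/- tumors, YZ2 was low in Cd4 (1.51 CPM, next 3.91), YZ7 low in summed NK genes (12.1 CPM, next 31.5), and YZ11 high in B cell genes (19.2 CPM, next 9.31) and lymph node genes (99.5 CPM, next 43.8), of which Cxcl13 held 87.4 CPM.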

How the results depend on the processing

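The comparisons were recomputed under the alternatives, except that DESeq2 gave no p for Cd4 in MaP R172H/- against MaP -/- tumors. DESeq2 called 3432 genes in MaP R172H/- against MaP -/- tumors (edgeR 1760), 3699 in MaP R172H/- against MaP R245W/- (edgeR 2114), 424 in MaP R245W/- against MaP -/- and 31 for the reporter (edgeR 0 in both). Of the listed genes it called 42, 15 and 4 in the first 3 (edgeR 18, 5 and 0), and of the 10 genes 1 in each of the first pair, Prf1. Summing tumors of a mouse gave 1126 called genes in the first comparison and a fold limit of 1 on the log2 scale 1051. With 10 counts required in every tumor, 11 listed genes were called there. Between the mutants, the 10 count filter gave 1401 genes and 3 listed genes, the fold limit 1392 genes, the 12 mutant tumors alone 1 listed gene, and leaving out both JM833 tumors 9. A fit of 18 tumors called 2 genes in MaP R245W/- against MaP -/- tumors. The cause of these shifts was not tested.

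Without both JM833 tumors, differences turned above 0 in MaP R172H/- against MaP -/- tumors for Cd3d (0.14), Cd3e (0.39), Cd4 (0.46), Cd8a (0.33), Cd8b1 (1.18) and Nkg7 (0.38), and in MaP R245W/- against MaP -/- tumors for Cd4 (0.42), Cd8b1 (0.12) and Nkg7 (0.56). Nkg7 in the latter was 0.031 with tumors of a mouse summed. For the reporter, Cd3d was -0.0038 with RLE, -0.0060 with DESeq2 and -0.0016 within MaP R245W/- tumors, and Prf1 and Nkg7 were -0.10 and -0.35 within MaP R172H/- tumors. The log2 ratio of Gzmb to Cd3e in MaP R172H/- against MaP -/- tumors differed by -0.044 with tumors of a mouse summed and -1.06 without both JM833 tumors. With CPM plus 1, r of Cd3e with Ptprc was 0.575 over 16 mice and 0.737 over the 9 MaP R245W/- and MaP -/- mice, and neither call held (permutation adjusted p = 0.0519 and 0.0513).

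Leaving out each tumor in turn gave 1067 to 1866 called genes in MaP R172H/- against MaP -/- tumors, 0 to 3 in MaP R245W/- against MaP -/-, and 1525 to 2362 between the mutants, with 9 to 23, 0 and 2 to 11 listed genes and 0 to 1, 0 and 0 of the 10 genes. In MaP R172H/- against MaP -/- tumors, the ranges were -1.21 to 0.013 for Cd3e, -0.92 to 0.27 for Cd4, -0.62 to 0.86 for Cd8b1, -1.61 to -0.89 for Prf1 and -0.71 to 0.085 for Nkg7. In MaP R245W/- against MaP -/- tumors they were -1.59 to 0.22 for Cd4, -1.07 to 0.19 for Gzmb, -0.39 to 1.01 for Prf1 and -1.5 to 0.26 for Nkg7. Between the mutants they were -0.049 to 0.82 for Cd3d, -0.21 to 0.84 for Cd4, -0.62 to 0.31 for Gzmb and -0.49 to 1.08 for Nkg7. For the reporter they were -0.58 to 0.30 for Cd3d, -0.50 to 0.81 for Cd3e, -0.40 to 0.55 for Cd8a, -0.53 to 0.41 for Cd8b1 and -0.55 to 0.66 for Nkg7. The ratio of Gzmb to Cd3e ranged from -0.57 to 0.59 and that of Prf1 to Cd3e from -0.64 to 0.25 in MaP R172H/- against MaP -/- tumors, and that of Cd8b1 to Cd8a from 0.40 to 0.66 between the mutants. The called ratios kept their direction and call, at -1.72 to -0.98 for Gzmb to Cd3e between the mutants and 0.70 to 0.85 for Cd8b1 to Cd8a in MaP R172H/- against MaP -/- tumors. The -0.98 was the value without RM0014. No paired analysis was possible because the replicate numbers only name tumors and no mouse gave tumors to more than 1 group. Counts of a few reads limit Cd3d, Cd3e and Ifng in the lowest tumors.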
